A study of Rattus norvegicus with 4 samples.

Results

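Piezo1, Piezo2, Asic1, Asic2, Asic3, Stoml3 and Tmem120a were examined in whole lumbar dorsal root ganglia (DRGs) of young rats given cisplatin or vehicle. They encode mechanosensitive channels, acid-sensing channels, a scaffold of such channels (Stoml3) and a proposed channel (Tmem120a). The 7 genes were chosen by symbol, and each matched 1 protein-coding gene of the 33506 genes in the count table. All 7 passed the filter on low counts, which kept 14719 of 22293 protein-coding genes. None of the 7 was called different between the groups. In Piezo2, the 3 ASIC genes and Stoml3 the libraries of a group differed by more than the groups did. The values of Tmem120a under cisplatin all lay above those under vehicle, and the values of Piezo1 below.

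Neonatal wild-type Wistar rats received cisplatin, a platinum-based chemotherapeutic, at 0.3 mg/kg by intraperitoneal injection on P14 and P16, or phosphate-buffered saline as vehicle. Both sexes were used in the study, and which sex each library came from was not given in the sources used here. Each group had 2 libraries of pooled lumbar DRGs, numbered by rat in the labels. The methods place collection at P23 in age-matched rats, whereas the labels place it 16 days after treatment. The total count per library was 21384801 to 25618417.

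Touch, body position sense and the detection of acid in inflamed tissue start in sensory neurons whose cell bodies lie in the DRG. Piezo channels are large trimeric pores that open when the membrane is stretched, and Piezo2 carries much of the rapidly adapting mechanical current of touch and proprioceptive neurons. Acid-sensing ion channels (ASICs) are trimeric sodium channels of the ENaC/degenerin family that open when extracellular pH falls, and stomatin-family proteins such as STOML3 bind to and tune channels at the membrane. RNA in the DRG also comes from satellite glia, Schwann cells, vessels and connective tissue, so that fewer cells of a type and less RNA per cell cannot be told apart in these libraries.

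Markers of neurons were present in every library, and the makeup of the libraries differed within each group (the plot of marker sums by library). Counts were scaled with TMM, which assumes that most genes do not change, and are given as CPM, counts per library brought to a common total. Summed over 12 pan-neuronal markers, the level was 19268 and 14901 CPM in vehicle replicates 1 and 2, and 25573 and 18006 CPM in cisplatin replicates 1 and 2. Summed over 8 Schwann cell markers, it was 60728 and 155987 CPM in the vehicle-treated and 47768 and 136785 CPM in the cisplatin-treated libraries. In each group the library with more neuronal RNA thus had less Schwann cell RNA. Vehicle replicate 1 also stood apart in markers of skeletal muscle, with 466 CPM over 4 genes against 13.3 to 50.1 CPM in the other libraries. Its sum over 5 oligodendrocyte markers, which belong to the central nervous system, was 80.3 CPM against 6.61 to 7.87 CPM. The part of these differences in the results was not tested, and values without vehicle replicate 1 are given for the members and other channel or receptor genes whose direction or pass rested on it.

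**Figure D1:**
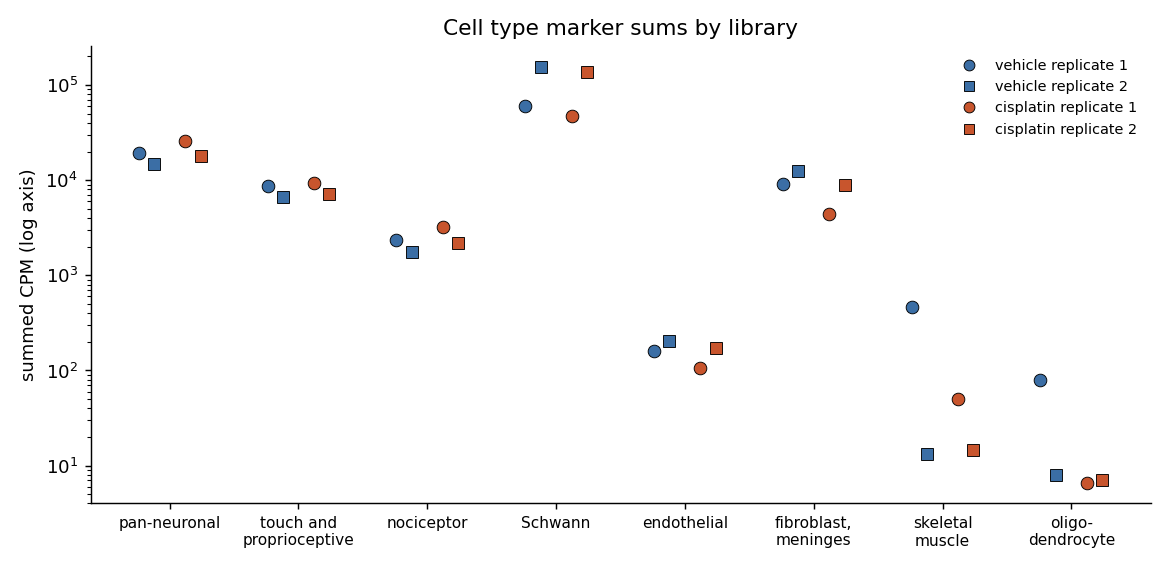
Summed TMM-scaled CPM (log axis) of fixed marker lists, with 1 point per library: blue for vehicle, orange for cisplatin, circles for replicate 1 and squares for replicate 2. The neuronal sums are higher and the Schwann cell sums lower in replicate 1 of each group, and skeletal muscle and oligodendrocyte markers are highest in vehicle replicate 1.

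Per gene length, Asic3 had the highest level of the 7 genes and Stoml3 the lowest. Over the 4 libraries, the mean FPKM, which scales fragments by gene length and library total, was 68.8 ± 10.2 (SD, n = 4) for Asic3, 40.3 ± 7.50 for Asic1, 22.4 ± 4.70 for Tmem120a, 16.6 ± 6.04 for Piezo2, 4.28 ± 0.583 for Asic2, 2.38 ± 0.521 for Piezo1 and 0.353 ± 0.146 for Stoml3. Asic3 stood at the 91.5th percentile of mean FPKM among the genes tested, and Stoml3 at the 5.15th. Tmem120a and Piezo2 were the neighbours in this order whose ranges over the libraries overlapped, with Tmem120a the higher of the pair in 3 of 4 libraries. In each other neighbouring pair the upper gene was above the lower in all 4 libraries, without overlap. The deposited gene lengths of Asic2, Asic3 and Piezo2 are multiples of 3, as for 52.1% of protein-coding genes, and such models may hold the coding sequence only, which limits comparison of levels between genes.

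**Figure D2:**
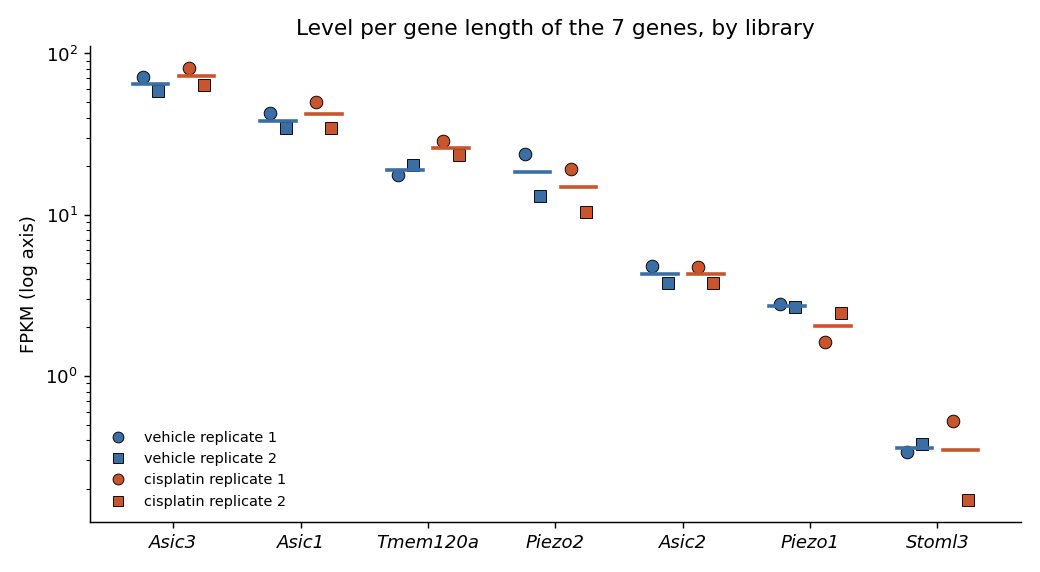
FPKM (log axis) of each gene in each library, ordered by mean level, with 1 point per library and a bar at the mean of each group (n = 2). The genes span from 68.8 FPKM for Asic3 to 0.353 FPKM for Stoml3 on average, and the points of vehicle and cisplatin libraries interleave for most genes.

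The question of the comparison was whether cisplatin in early life altered these genes at the time of pain. A gene was called when its adjusted p was under 0.05 and its change at least 1.5-fold. edgeR's quasi-likelihood test called 0 of the 7 genes, where it called 0% of all genes tested higher and 0.00679% lower, 0.00679% in either direction. With the p left unadjusted, 0 of the 7 genes passed, against 2.8% of all genes higher, 5.32% lower and 8.12% in either direction. DESeq2, also used by the authors, called 0 of 7, against 0.236% higher, 0.413% lower and 0.649% in either direction of the genes to which it gave an adjusted p. A fit of edgeR blocked on replicate number called 0 of 7 as well, where it called 3.59% of all genes higher, 7.72% lower and 11.3% in either direction. The groups did not overlap in 2 of the 7 genes, against 41.8% of all genes tested. The fitted log2 fold changes (cisplatin over vehicle) ran from -0.42 in Piezo1 to 0.45 in Tmem120a, with 3 above and 4 below 0 and a median of -0.02, beside a median of -0.01 over all genes tested. For any 1 gene, 2 libraries against 2 give an exact permutation p (two-sided) of 0.333 at the least. The 95% interval of each of the 7 genes reached past a 1.5-fold change in at least 1 direction, and those of Piezo2, Asic2 and Stoml3 in both, so that changes of that size were within the error of these libraries.

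**Figure D3:**
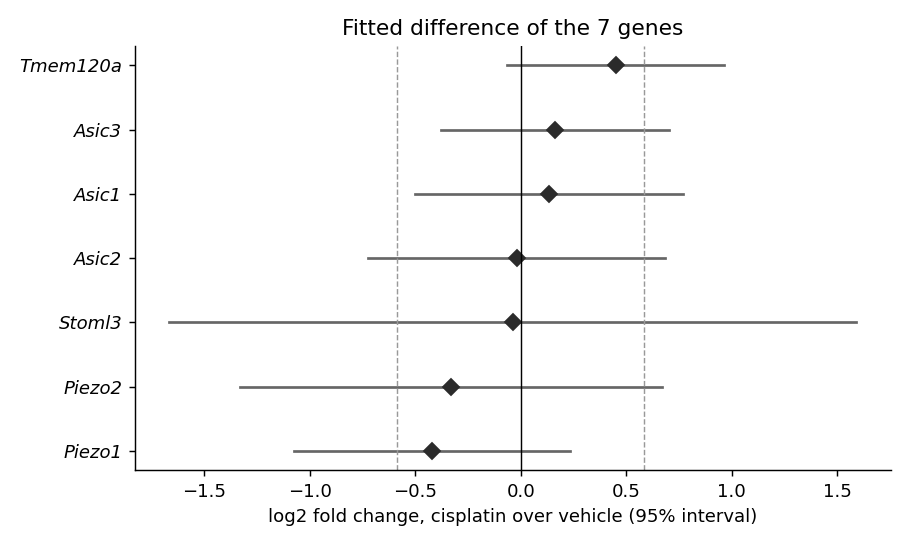
Log2 fold change of cisplatin over vehicle (diamonds) with 95% intervals from edgeR's quasi-likelihood fit, and dashed lines at a 1.5-fold change. All 7 intervals include 0, and the interval of Stoml3 is the widest.

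Piezo2 (ENSRNOG00000038784; chromosome 18, 58354648 to 58499836, minus strand, Rnor_6.0) encodes the main stretch-gated channel of touch and proprioceptive neurons. Its counts were 4980 and 2174 under vehicle (199 and 110.4 CPM) and 4052 and 2043 under cisplatin (159 and 86.8 CPM), replicate 1 first. The groups overlapped, and replicate 1 was 1.80-fold above replicate 2 in vehicle-treated and 1.84-fold in cisplatin-treated rats. The fitted level after cisplatin was 0.796-fold that of vehicle, a log2 fold change of -0.33 (standard error 0.40, 95% interval -1.33 to 0.67, adjusted p = 0.799 from edgeR). The direction turned without vehicle replicate 1, to 0.16, and without cisplatin replicate 2, to 0.04, both on the log2 scale. It also turned, to 0.03, with a correction for gene length: across all genes tested, Spearman's rho between the log2 fold change and the deposited gene length was -0.36, and Piezo2, at 8163 bases, and Piezo1, at 8203 bases, have the longest models of the 7.

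The summed markers of large touch and proprioceptive neurons, most of it from Nefh, were higher in replicate 1 of each group, as Piezo2 was. This order was not particular to them, since the pan-neuronal and nociceptor sums ran the same way. Over 9 nociceptor markers the sum was 2359 and 1766 CPM in the vehicle-treated and 3257 and 2209 CPM in the cisplatin-treated libraries. Over 13 touch and proprioceptive markers it was 8714 and 6665 CPM in the vehicle-treated and 9340 and 7125 CPM in the cisplatin-treated libraries. Replicate 1 was thus 1.31-fold above replicate 2 in both groups for the touch and proprioceptive sum, less than in Piezo2. Of these 13 genes, 10 had a fitted log2 fold change above 0 and 3 below, with a median of 0.12 and 0 called. Nefh, a neurofilament of large myelinated neurons, had 6986 and 5006 CPM against 7356 and 5212 CPM, and Pvalb, a calcium-binding protein of proprioceptors, 266 and 163 CPM against 302 and 218 CPM. Not all members ran in that order: Ntrk3, the neurotrophin-3 receptor of proprioceptors, had 7.71 and 9.80 CPM against 5.47 and 7.91 CPM, and Maf, a transcription factor of touch neurons, 69.5 and 116 CPM against 34.8 and 76.1 CPM. The members below 0 in the fit were Ntrk3 (-0.39), Maf (-0.74) and Mafa (-0.29), none of them called. The 3 genes with the values closest to those of Piezo2 over the 4 libraries were Ppfia4, Rhbdl1 and Rims3, with a root-mean-square difference of centred log2 CPM of 0.041, 0.045 and 0.047.

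Piezo1 (ENSRNOG00000056786; chromosome 19, 55305496 to 55367353, minus strand) encodes the stretch-gated channel found in endothelium and many other non-neuronal cells. Piezo1 counts were 582 and 445 under vehicle (23.2 and 22.6 CPM) and 347 and 485 under cisplatin (13.7 and 20.6 CPM). Both cisplatin-treated libraries lay below both vehicle-treated libraries, as they did in 21.2% of all genes tested, and cisplatin replicate 1 was the lowest. The log2 fold change was -0.42 (standard error 0.26, 95% interval -1.07 to 0.23, adjusted p = 0.615 from edgeR). Without cisplatin replicate 1 it was -0.14, and with the gene length correction -0.08. Piezo2 was 4.23-fold to 11.7-fold higher than Piezo1 per length, with the widest ratio in cisplatin replicate 1.

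Cisplatin replicate 1 was also the lowest library in the summed markers of vessels and of connective tissue, though not in each of them, with Cdh5 and Emcn among the endothelial and Dcn and Slc6a13 among the connective tissue markers lowest in a vehicle-treated library. The sum over 7 endothelial markers was 159 and 205 CPM in the vehicle-treated and 107 and 171 CPM in the cisplatin-treated libraries, with 4 of the 6 tested members below 0, 2 above, and Cldn5 at 0 counts in all libraries. The sum over 8 fibroblast and meninges markers was 9043 and 12402 CPM against 4437 and 8926 CPM. The part of these cells in the Piezo1 values was not tested. Piezo1 shares 207 bases at its end with Ctu2 on the opposite strand, which had 248 to 344 counts, and whether the counting used strand was not given in the sources used here, so that reads in the shared stretch cannot be assigned.

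Asic1 and Asic3, the ASIC subunits with the highest levels here, kept a nearly constant ratio in all libraries. Asic3 (ENSRNOG00000008380; chromosome 4, 7288855 to 7292901, minus strand) encodes the subunit of DRG neurons that responds to the mild acidity of ischaemic and inflamed tissue. Asic3 counts were 2921 and 1893 under vehicle (117 and 96.2 CPM) and 3403 and 2462 under cisplatin (134 and 105 CPM). The groups overlapped, since vehicle replicate 1 lay above cisplatin replicate 2. The log2 fold change was 0.16 (standard error 0.22, 95% interval -0.38 to 0.71, adjusted p = 0.818 from edgeR), and it was -0.02 without cisplatin replicate 1.

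Asic1 (ENSRNOG00000059765; chromosome 7, 141326321 to 141354937, plus strand), which encodes a subunit of neurons in both the DRG and the brain, had counts of 4594 and 2949 under vehicle (184 and 149.8 CPM) and of 5506 and 3515 under cisplatin (217 and 149.4 CPM). The highest and the lowest library were thus both cisplatin-treated. The log2 fold change was 0.14 (standard error 0.25, 95% interval -0.50 to 0.77, adjusted p = 0.879 from edgeR), and it was -0.15 without cisplatin replicate 1. Per length, Asic3 was 1.68-fold and 1.70-fold above Asic1 in the vehicle-treated and 1.63-fold and 1.85-fold in the cisplatin-treated libraries. The genes with the closest values over the 4 libraries were Rnf187, Urgcp and Creld1 for Asic1, with root-mean-square differences of 0.011, 0.012 and 0.016 in centred log2 CPM, and Esco2, Napg and RGD1308117 for Asic3, with 0.0066, 0.011 and 0.014.

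Neither Asic1 nor Asic3 was among the 3 genes closest to the other, so that their shared variation over the libraries was not particular to the pair. Their promoter sequences are shown for description. These are windows of 300 bases that lie mostly upstream of a RefSeq start site in the GRCr8 build, which is not the build of the counts. Capitals mark GC boxes (GGGCGG on either strand), and TATA boxes (TATAAA) and CCAAT boxes (CCAAT) were searched on both strands as well. The Asic1 window lies at chr7:132678457-132678756 on the plus strand and the Asic3 window at chr4:11657318-11657617 on the minus strand.
Asic1: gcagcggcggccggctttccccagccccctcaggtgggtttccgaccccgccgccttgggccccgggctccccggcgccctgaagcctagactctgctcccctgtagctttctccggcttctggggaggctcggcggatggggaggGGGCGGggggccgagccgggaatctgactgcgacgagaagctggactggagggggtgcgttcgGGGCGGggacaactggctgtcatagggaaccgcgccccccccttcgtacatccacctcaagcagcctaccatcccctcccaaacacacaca
Asic3: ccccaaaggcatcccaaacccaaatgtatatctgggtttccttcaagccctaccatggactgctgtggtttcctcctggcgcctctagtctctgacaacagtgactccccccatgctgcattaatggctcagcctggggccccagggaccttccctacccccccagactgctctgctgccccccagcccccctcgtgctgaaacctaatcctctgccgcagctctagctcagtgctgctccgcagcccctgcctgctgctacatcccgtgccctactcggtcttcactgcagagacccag
The Asic1 window held 2 GC boxes, 23 CpG dinucleotides and a GC content of 69.7%, while the Asic3 window held 0 GC boxes, 6 CpG dinucleotides and a GC content of 60.7%. Neither held a TATA or a CCAAT box. Over 33469 RefSeq promoter windows of this length, 33.1% held a GC box, 14.2% a TATA box and 37.5% a CCAAT box, the median GC content was 51.7% and the median number of CpG dinucleotides was 7. The windows of the pair thus differed in these features. Of the 7 genes, 6 had a promoter entry.

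Asic2 (ENSRNOG00000058308; chromosome 10, 68248655 to 68517564, minus strand), a subunit that forms mixed channels with the other ASICs, was the least abundant of the 3. Asic2 counts were 208 and 130 under vehicle (8.31 and 6.60 CPM) and 209 and 153 under cisplatin (8.23 and 6.50 CPM). The values of both groups were nearly the same in size and in spread. The log2 fold change was -0.02 (standard error 0.28, 95% interval -0.72 to 0.69, adjusted p = 0.986 from edgeR), and its direction turned without vehicle replicate 1 (0.16) and without cisplatin replicate 2 (0.14). Of the summed FPKM of the 3 genes, Asic3 made up 59.9% to 62.5%, Asic1 33.8% to 36.6% and Asic2 3.48% to 4.06% in every library. The shares of the ASIC subunits therefore ranged over less than 3 percentage points each across the 4 libraries.

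Stoml3 (ENSRNOG00000011006; chromosome 2, 142717281 to 142735410, plus strand) encodes a stomatin-like scaffold that raises the sensitivity of mechanosensitive channels in touch neurons. Near the limit of these libraries, its counts were 19 and 17 under vehicle (0.759 and 0.864 CPM) and 30 and 9 under cisplatin (1.18 and 0.383 CPM). The highest and the lowest library were both cisplatin-treated. Their exact 95% Poisson intervals, which cover counting error only, were 20.2 to 42.8 and 4.12 to 17.1 counts. These libraries were picked as the extremes after seeing the counts. The intervals therefore cannot show whether the libraries differed by more than counting error. The log2 fold change was -0.04 (standard error 0.65, 95% interval -1.67 to 1.59, adjusted p = 0.988 from edgeR), and it was -1.06 when cisplatin replicate 1 was left out and 0.54 when cisplatin replicate 2 was. The interval spans 0.315-fold to 3.01-fold, and differences within it were within the error of these libraries, from their spread as well as from counting. The genes with the closest values were Ceacam18, AABR07030897.1 and Gpha2, with root-mean-square differences of 0.066, 0.069 and 0.10 in centred log2 CPM.

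Tmem120a (ENSRNOG00000001441; chromosome 12, 23989596 to 23998254, plus strand) encodes TACAN, a membrane protein proposed as an ion channel of mechanical pain, a role that is debated. Tmem120a counts were 697 and 639 under vehicle (27.8 and 32.5 CPM) and 1151 and 872 under cisplatin (45.3 and 37.1 CPM). Both cisplatin-treated libraries lay above both vehicle-treated libraries, as they did in 20.6% of all genes tested. The level after cisplatin was 1.37-fold that of vehicle, a log2 fold change of 0.45 (standard error 0.21, 95% interval -0.06 to 0.96, adjusted p = 0.532 from edgeR). This was the smallest p of the 7 genes, at an unadjusted 0.0755, and 14.2% of all genes tested had a p that small or smaller. Its log2 fold change stayed above 0 in each of the 17 alternatives run, which reuse the same libraries. It ran from 0.08, with the summed pan-neuronal markers as the scale, to 0.59, and was 0.34 with the gene length correction. Piezo1 likewise kept its direction in each of its 17 alternatives.

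The pan-neuronal markers varied in their fitted values. Of the 12 markers, 10 had a fitted log2 fold change above 0 and 2 below, with a median of 0.30, a range from -0.42 in Elavl3 to 0.77 in Uchl1, and 0 called. Uchl1, a ubiquitin hydrolase abundant in neurons, had the highest fitted value of the list, though not the highest level. It had 1767 and 1497 CPM in the vehicle-treated and 3345 and 2203 CPM in the cisplatin-treated libraries. Of 9 nociceptor markers, 9 had a fitted value above 0, with a median of 0.43 and 0 called. P2rx3, an ATP-gated channel of nociceptors, had 202 and 169 CPM against 415 and 231 CPM. Because most of these genes are known from neurons, their values were also set against the summed pan-neuronal markers (the plot of both scales). There, the median over all genes tested was -0.34 on the log2 scale, so that a gene unchanged relative to most others appears lower.

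**Figure D4:**
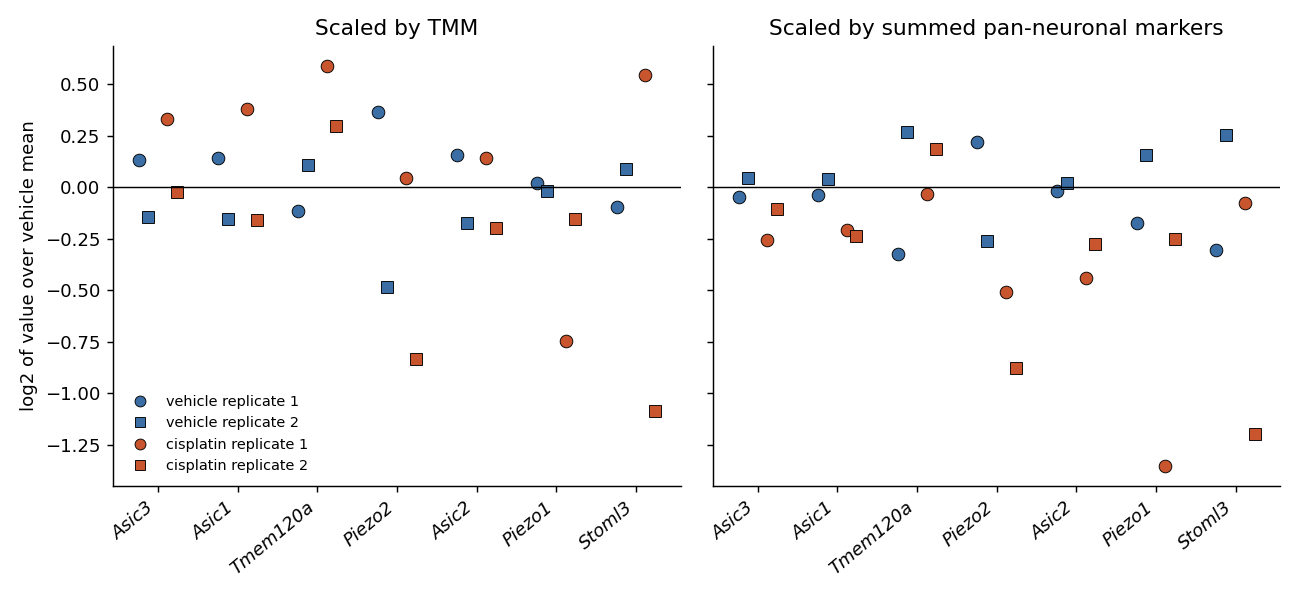
Log2 of each library's value over the vehicle mean, for TMM-scaled CPM (left) and for CPM divided by the summed CPM of 12 pan-neuronal markers (right), with 1 point per library. On the left Piezo1 alone lies below and Tmem120a alone above the vehicle-treated libraries in both cisplatin-treated libraries, and on the right 5 genes lie below in both.

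Per 1000 CPM of pan-neuronal markers, Piezo2 had 10.3 and 7.41 CPM in the vehicle-treated and 6.24 and 4.82 CPM in the cisplatin-treated libraries. Both cisplatin-treated libraries were thus below both vehicle-treated libraries, which was not so on the TMM scale. Asic1 had 9.52 and 10.1 CPM against 8.47 and 8.30 CPM on this scale, and Asic3 had 6.06 and 6.45 CPM against 5.24 and 5.81 CPM. Within each group, the spread of Asic1, Asic2 and Asic3 was small beside that on the TMM scale. In all, 5 of the 7 genes were below without overlap, in Piezo1, Piezo2, Asic1, Asic2 and Asic3, where 33% of all genes tested were, and 0 were above, where 4.08% were (37.1% either way). Tmem120a overlapped, with 1.45 and 2.18 CPM against 1.77 and 2.06 CPM. Nefl made up 41.1% to 48.4% of the marker sum, and on a scale set by the geometric mean of the same markers, which weights them equally and was chosen after seeing the data, 3 of the 7 were below without overlap, Piezo2, Asic1 and Asic2, where 27.2% of all genes tested were, and 0 were above, where 4.7% were (31.9% either way). The median over all genes was -0.30 on that scale. edgeR called 0 of the 7 genes on either scale. The log2 fold changes of Asic1 and Asic3 turned below 0 on both, to -0.22 and -0.18 with the sum and to -0.18 and -0.13 with the geometric mean.

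Of a fixed list of 47 symbols of other mechanosensing and acid-sensing genes, 46 were in the table, and the symbol without a row, Pacc1, is the later name of Tmem206, which is on the list. The filter kept 41, of which 24 had a fitted log2 fold change above 0 and 17 below, with a median of 0.10. edgeR and DESeq2 each called 0 of the 41. With the p left unadjusted, edgeR passed 1 higher and 1 lower gene of the 41, against 2.8% and 5.32% of all genes tested. Both cisplatin-treated libraries lay above both vehicle-treated libraries in 5 of the 41 and below in 7, against 20.6% and 21.2% of all genes tested. Among those removed by the filter, Asic5 had 0 counts in every library.

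**Figure D5:**
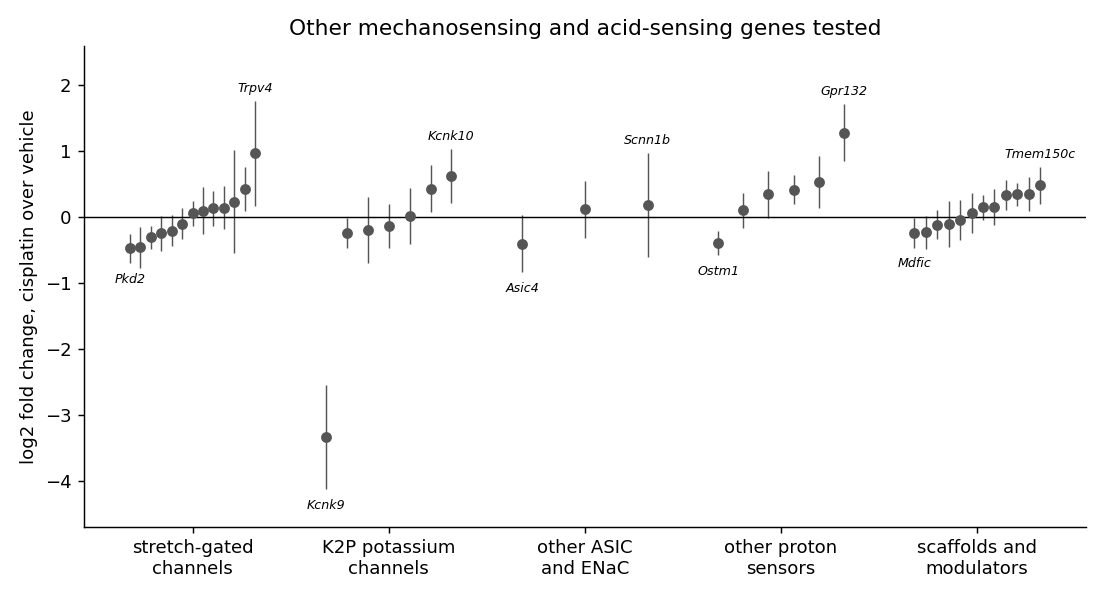
Log2 fold change of cisplatin over vehicle with its standard error for the 41 genes tested, in 5 sublists, with the lowest and highest gene of each sublist named. Most genes lie within 0.5 of 0, with Kcnk9 at -3.33 and Gpr132 at 1.28 farthest from it.

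The gene passed as lower was Kcnk9, which encodes the acid-sensitive K2P background potassium channel TASK-3. Kcnk9 counts were 29 and 11 under vehicle and 2 in either library under cisplatin, so that it passed the filter on low counts through the vehicle-treated libraries alone. At its counts under cisplatin, it could be tested only by being higher under vehicle, and the values that follow are given for description. Summed per group and scaled by TMM, the ratio was 0.0914, with an exact 95% interval from counting of 0.0237 to 0.253. Its log2 fold change was -3.33 (standard error 0.79, unadjusted p = 0.00611, adjusted p = 0.509 from edgeR), and without vehicle replicate 1, the library with the most oligodendrocyte and skeletal muscle markers, it was -2.69 at an unadjusted p = 0.0773 from edgeR. The part of these markers in the Kcnk9 counts was not tested. Of the other 6 K2P genes, 3 were above and 3 below 0 in the fit, with Kcnk10, a stretch-sensitive channel, the highest at 0.63.

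The gene passed as higher was Gpr132, a G protein-coupled receptor of the proton-sensing family found on macrophages and other leukocytes. Gpr132 counts were 20 and 12 under vehicle and 48 and 37 under cisplatin, without overlap. Its log2 fold change was 1.28 (standard error 0.43, unadjusted p = 0.0278, adjusted p = 0.509 from edgeR). The pass was lost whichever library was left out, at an unadjusted p of 0.056 to 0.128 from edgeR, and with DESeq2 at 0.076 and on the pan-neuronal scales at 0.110 and 0.101. The sum over 7 macrophage markers was 41.9 and 48.5 CPM in the vehicle-treated and 40.2 and 44.4 CPM in the cisplatin-treated libraries, with 3 of the 7 above and 4 below 0 in the fit. Among them Cd68, a lysosomal protein of macrophages, had 1.56 and 1.83 CPM against 2.87 and 3.27 CPM, and Ptprc, which encodes the CD45 antigen, had 2.84 and 2.74 CPM against 2.40 and 2.47 CPM. Of 6 tested genes in the sublist of other proton sensors and proton-linked genes, Gpr132 among them, 5 were above 0. The lowest, at -0.40, was Ostm1, a subunit of a lysosomal chloride-proton exchanger rather than a sensor.

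Among 13 stretch-gated channels tested, 7 were above and 6 below 0, from -0.47 in Pkd2, a polycystin of primary cilia, to 0.97 in Trpv4, an osmotically and mechanically gated TRP channel. Trpv4 counts were 5 and 24 under vehicle and 40 and 26 under cisplatin, and vehicle replicate 1 alone was low. Without that library its log2 fold change was 0.14, and without vehicle replicate 2 it was 2.72. Pkd2 counts were 624 and 628 under vehicle and 499 and 500 under cisplatin, without overlap. Among the 3 other ASIC and ENaC genes tested, Asic4 was the lowest at -0.41 and Scnn1b the highest at 0.19, each with at most 68 counts in any library. Both directions rested on single libraries, since Asic4 was at 0.056 without vehicle replicate 1, and Scnn1b at 0.88 without cisplatin replicate 1 and -1.09 without cisplatin replicate 2. Scnn1b also turned, to -0.04, without vehicle replicate 2, and to -0.06 and -0.01 on the pan-neuronal scales. Among 12 scaffolds and modulators, 7 were above and 5 below 0, from -0.24 in Mdfic, which binds Piezo channels, to 0.48 in Tmem150c, a protein that slows mechanically activated currents. Tmem150c counts were 2484 and 1590 under vehicle and 3910 and 2289 under cisplatin, so that the groups overlapped. None of these genes was called.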

How the data were processed

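RNA of whole lumbar DRGs, with 2 libraries per treatment, was sequenced after poly(A) selection. The authors used HISAT2 2.0.5 to map cleaned reads to Rnor_6.0 (Ensembl), assembled transcripts with StringTie 1.3.3b and deposited raw counts per gene and FPKM values. featureCounts 1.5.0-p3 stands in the submitters' processing notes, and the strand setting was not given in the sources used here. Libraries were grouped by the treatment in their titles, and replicate numbers come from the titles, which number the rats in each group.

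Protein-coding genes kept by edgeR's filterByExpr were normalised with TMM and compared with edgeR 4.0.16 (glmQLFit with legacy=FALSE, glmQLFTest, R 4.3.3) without a block, with Benjamini-Hochberg adjustment over 14719 genes. A call needed an adjusted p under 0.05 together with a 1.5-fold change. Standard errors came from the log2 fold change and F. DESeq2 1.42.0 and limma 3.58.1 on log2(FPKM + 1) and log2(FPKM + 0.1) were alternatives. The constant added for limma can shrink the change of low genes. It did not do so throughout, as Stoml3 had a log2 fold change of -0.16 on log2(FPKM + 0.1) against -0.04 from edgeR. Depth was 21384801 to 25618417 counts. Intervals of single counts cover counting error only, as PCR copies of a molecule were not marked. The labels number the rats, but how ganglia were pooled across rats was not given, and p-values measure the spread between these libraries, which may in part be technical. Gene length was corrected for, as an alternative, by lowess (span 0.3) in each library on the deposited length. Promoters come from RefSeq (GRCr8), matched by symbol.

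The 7 genes and the gene lists were chosen with earlier results of these data known. Named in the text were the 7 genes, of the other list those called or at an unadjusted p under 0.05 and the extremes of each sublist, and the 3 genes closest to Piezo2, Asic1, Asic3 and Stoml3. Further marker genes were picked for the text with their values known. The remaining marker lists gave medians of log2 fold change of -0.09 for satellite glia, -0.36 for Schwann cells, -0.39 for smooth muscle and pericytes, -0.47 for fibroblasts and meninges, -0.31 for endothelium, -3.43 for skeletal muscle, -3.93 for oligodendrocytes and -0.01 for red blood cells. The scripts were tested on simulated data.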

Additional observations from a re-analysis of the deposited data

How the results depend on the processing

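No member was past the threshold in any of 118 values from the alternatives, and 103 of them kept the direction of the reported value. The direction turned in Piezo2 with the length correction (0.03, and 0.016 with the replicate block as well), in Asic1 and Asic3 with the pan-neuronal sum (-0.22 and -0.18) and with their geometric mean (-0.18 and -0.13), the latter chosen after seeing the data. Fits that left out 1 library gave log2 fold changes from -0.75 to -0.14 in Piezo1, -0.83 to 0.16 in Piezo2, -0.15 to 0.38 in Asic1, -0.19 to 0.16 in Asic2, -0.015 to 0.33 in Asic3, -1.06 to 0.54 in Stoml3 and 0.31 to 0.59 in Tmem120a. In these fits the lone library of a group is assumed to vary like the other group. Over all genes tested, edgeR called 0 higher and 1 lower, and with 1 library left out 0 to 4 higher and 0 to 4 lower. It called 1 higher and 1 lower when unfiltered, and the same when every library needed 10 counts, under which Stoml3 had no value. DESeq2 called 36 higher and 63 lower, and limma 2 and 2 on log2(FPKM + 1) and 1 and 1 on log2(FPKM + 0.1). An unadjusted p gave 412 and 783, with 1 and 1 among the other mechanosensing and acid-sensing genes.

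Blocking on the replicate number gave 529 genes called higher and 1136 lower by edgeR, and with the length correction as well 277 and 805. In both fits 1 of the other genes was called lower, Kcnk9 (adjusted p = 0.0245 and 0.0342 from edgeR), and 0 of the 7 members. Kcnk9 passed the filter on low counts through the vehicle-treated libraries alone, so that its call cannot be read as evidence of a difference. With the block, Piezo2 was at -0.33 (adjusted p = 0.0547 from edgeR), Tmem120a at 0.45 (0.0614) and Piezo1 at -0.45 (0.111). Same-numbered libraries come from different rats, and nothing in the labels says that a number marks a litter or batch. In the deposited data the cisplatin-treated columns carry other numbers than the vehicle-treated columns. The pairing used for the block thus rests on the titles alone. The difference between replicates 2 and 1 correlated between the groups across genes (Pearson's r = 0.444), although genes are not independent replicates. Low counts limit Stoml3, Kcnk9 and Scnn1b.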
